A study of Mus musculus with 6 samples.

Results

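The 43 genes described here encode Polycomb group proteins and the enzymes that act against them. They were listed by name as members of Polycomb repressive complex 1 (PRC1), Polycomb repressive complex 2 (PRC2), the Pho repressive complex (PhoRC), the MBT-domain proteins, the Polycomb repressive deubiquitinase (PR-DUB) and the demethylases of histone H3 lysine 27. All 43 were found among the 34866 genes of the deposited table after Ensembl identifiers, with the version left off, had been matched to symbols. The list was drawn up around Sfmbt2 because that gene differed between the genotypes in these same libraries. The genotype values of the members are therefore given as a description, with no p-value printed for a member. Members called by the fit over all genes, or with an unadjusted p under 0.05 in it, are only counted beside the share of all genes.

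RNA was sequenced from live effector memory CD4+ T cells, helper T cells that have met antigen, sorted from mouse spleens. There were 3 libraries from Il1rn knockout mice (Il1rnKO 1, 2 and 3) and 3 from wild-type mice (WT 1, 2 and 3), with no treatment stated. Il1rn encodes the interleukin-1 receptor antagonist, which blocks signalling by interleukin-1. The strain, the knockout allele, the age and sex of the mice, and whether each sample came from a separate animal are not given in the labels, so the spread between samples may be technical.

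Polycomb proteins keep genes silent through chromatin. PRC2 methylates H3K27 through Ezh1 or Ezh2, and PRC1 ubiquitinates histone H2A through Ring1 or Rnf2. Canonical PRC1 reads the PRC2 mark through a CBX protein and compacts chromatin, whereas variant PRC1 holds Rybp or Yaf2 in place of CBX. In Drosophila, PhoRC joins the DNA-binding protein Pho, the relative of mouse Yy1, to Sfmbt, whose MBT repeats bind methylated histones and whose mouse relatives are Sfmbt1 and Sfmbt2. In helper T cells, Ezh2 is known for restraining lineage regulators and cytokine genes. Mouse Sfmbt2 is known as an imprinted gene of the early embryo and placenta, and it carries a large cluster of microRNA genes in an intron.

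The libraries held 14102183 to 17677217 counts each. Levels are given in CPM, counts divided by library size and corrected by TMM for library composition, and 1 CPM stood for 12.9 to 18.2 counts. Between genes, levels were compared as CPM per kilobase of the union of annotated exons. The summed CPM of 10 T cell markers was 5845 to 6422 in wild type and 5231 to 7057 in knockout, and markers of the labelled cells (Cd3e, Cd4 and Cd44 among them) were all detected. Summed neutrophil markers were 4.49 to 7.13 CPM in wild type and 36.5 to 115.8 CPM in knockout. Of 8 tested genes 1 (Ngp) passed the threshold, against 0.0523% of all genes. None of the 11 listed genes was at 0 in all libraries. Ngp had 0 counts in each wild-type library, so it and others like it could enter the test only through the knockout group. Their direction is therefore not counted. Summed monocyte and macrophage markers were 12.9 to 18.8 CPM in wild type and 21.4 to 37.5 CPM in knockout. Summed B cell markers were 8.59 to 14.2 CPM and 6.78 to 12.9 CPM, in the same order. Mitochondrial genes took 5.68%, 7.32% and 8.92% of the counts of WT 1, 2 and 3, and 3.69%, 3.44% and 8.34% of those of Il1rnKO 1, 2 and 3. Il1rn had 0 to 10 counts in every library, too few to check the genotype labels. In bulk RNA, fewer cells of a type and less RNA per cell cannot be told apart.

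Sfmbt2, the founding member of the list, was about as low in each knockout library as in the others and far below every wild-type library. It lies on the forward strand of chromosome 2, from 10370510 to 10595253 (GRCm38, ENSMUSG00000061186.15). The 3 wild-type libraries held 1007, 1049 and 754 rounded counts of Sfmbt2, and the 3 knockout libraries held 146, 137 and 151. Scaled to depth, Sfmbt2 stood at 55.3, 64.8 and 58.3 CPM in WT 1, 2 and 3 and 8.06, 8.76 and 9.35 CPM in Il1rnKO 1, 2 and 3. All 3 knockout libraries were low and close together, and the groups were far apart. Knockout retained 14.7% of the wild-type mean, a 6.82-fold difference of means (log2 -2.77 (SE 0.17)), and the lowest wild-type library was still 5.91-fold above the highest knockout library. Within the groups Sfmbt2 varied little, with a standard deviation of 0.112 in log2 CPM against a median of 0.240 for tested genes of like level, the ninth lowest of the 43 members. The 3 knockout libraries, whose summed neutrophil markers ran from 36.5 to 115.8 CPM, all had Sfmbt2 between 8.06 and 9.35 CPM, and the part of those transcripts in the difference was not tested.

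Start regions of Sfmbt2 and of Sfmbt1 are shown because the 2 genes are paralogs that behaved differently here, and because Yy1, the mouse relative of Pho, is a member. Each line holds the 250 bases before a RefSeq transcription start (GRCm38.p6), on the forward strand, 5′ to 3′. Capitals mark the letters CCATNTT, a core of the YY1 motif, searched on both strands.
Sfmbt2 first start, chr2:10370201-10370450: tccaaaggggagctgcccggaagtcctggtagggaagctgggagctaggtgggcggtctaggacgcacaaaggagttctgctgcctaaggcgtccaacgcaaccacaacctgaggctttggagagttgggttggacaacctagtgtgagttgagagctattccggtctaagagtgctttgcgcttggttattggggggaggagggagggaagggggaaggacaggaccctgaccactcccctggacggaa
Sfmbt2 second start, chr2:10372186-10372435: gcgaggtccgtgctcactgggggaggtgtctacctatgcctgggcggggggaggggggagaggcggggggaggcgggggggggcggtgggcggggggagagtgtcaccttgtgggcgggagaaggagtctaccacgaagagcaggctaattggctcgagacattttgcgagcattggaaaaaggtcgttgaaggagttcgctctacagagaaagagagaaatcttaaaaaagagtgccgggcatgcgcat
Sfmbt2 second start, 27 bases just after it, chr2:10372436-10372462: agagaggatgCCATATTggaatgaggc
Sfmbt1, chr14:30714917-30715166: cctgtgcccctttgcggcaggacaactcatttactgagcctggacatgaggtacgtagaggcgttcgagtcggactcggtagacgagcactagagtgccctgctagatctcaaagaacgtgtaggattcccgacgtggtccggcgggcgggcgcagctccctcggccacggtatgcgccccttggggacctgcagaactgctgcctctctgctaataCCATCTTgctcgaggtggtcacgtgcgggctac
The first Sfmbt2 entry held no match, the second held 1 at position 11 after the start, and the Sfmbt1 entry held 1 at position -33. The 300-base entries, which run 50 bases past the start, had 9 and 16 CpG for Sfmbt2 and 26 for Sfmbt1. RefSeq entries were found for 37 of the 43 members, 53 entries in all, with a median of 24 CpG against 7 over all 32851 entries. The core was present in 10 of the 53 (18.9%) and in 5281 of all entries (16.1%), so that the members' share lay near the background, and a match describes letters only.

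Sfmbt1 did not share the pattern of Sfmbt2. Its values were 26.3, 25.3 and 18.0 CPM in WT 1, 2 and 3 and 25.8, 23.4 and 22.2 CPM in Il1rnKO 1, 2 and 3. The groups overlapped, and WT 3 was the lowest library (log2 fold change 0.04 (SE 0.19)). Per kilobase of exon, the wild-type level of Sfmbt2 was 6.51 ± 0.536 CPM per kilobase and its knockout level 0.956 ± 0.0707 (SD, n = 3), while Sfmbt1 averaged 2.72 ± 0.358 over the 6 libraries (SD, n = 6). Per kilobase, the ratio of Sfmbt2 to Sfmbt1 was 1.99, 2.43 and 3.06 in the wild-type libraries 1, 2 and 3, against 0.296, 0.354 and 0.398 in the knockout libraries 1, 2 and 3. Sfmbt2 was thus the higher of the 2 transcripts in every wild-type library and the lower in every knockout library.

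Yy1, the zinc-finger protein that stands in for Pho in mammals, was abundant in both groups at 31.0 ± 2.73 CPM per kilobase (SD, n = 6). It measured 222, 201 and 212 CPM in WT 1, 2 and 3 and 200.5, 180.1 and 177 CPM in Il1rnKO 1, 2 and 3. The knockout libraries were all below the lowest wild-type library, a small shift (log2 fold change -0.19 (SE 0.14)). Il1rnKO 1 was only just below WT 2 (200.5 against 201.1 CPM), so that the groups barely separated.

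**Figure D1:**
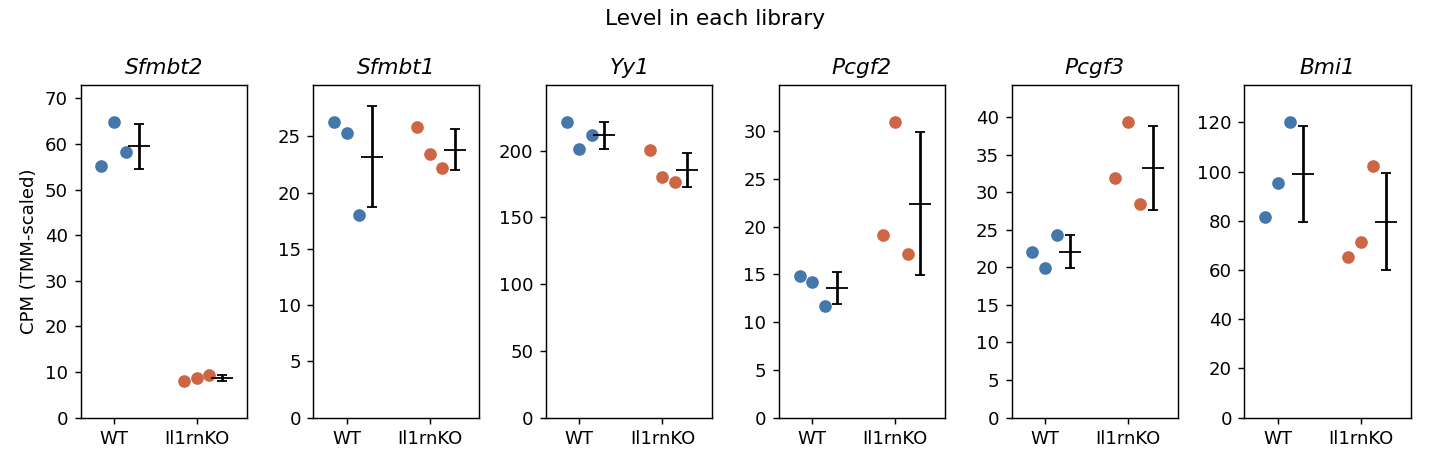
Expression of selected Polycomb genes in each library, in TMM-scaled CPM on axes that start at 0, with 1 point per library (1 to 3 from left to right) and a bar for the mean ± SD of each group of 3. Sfmbt2 falls from between 55.3 and 64.8 CPM in wild type to between 8.06 and 9.35 CPM in knockout, Pcgf2 and Pcgf3 are higher and Yy1 slightly lower in all 3 knockout libraries, and the groups of Sfmbt1 and Bmi1 overlap.

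The 6 core subunits of PRC2 were expressed in every library, and in each of them the genotypes overlapped. Eed, which binds the H3K27 methyl mark, measured 98.8, 114 and 103 CPM in WT 1, 2 and 3 and 89.1, 87.0 and 112 CPM in Il1rnKO 1, 2 and 3. Suz12, the scaffold of the complex, measured 166, 178 and 186 CPM in WT 1, 2 and 3 and 174, 153 and 167 CPM in Il1rnKO 1, 2 and 3. Their groups overlapped, with log2 fold changes of -0.13 (SE 0.15) for Eed and -0.10 (SE 0.14) for Suz12. The methyltransferase Ezh2 measured 87.0, 91.1 and 97.3 CPM in WT 1, 2 and 3 and 93.1, 86.2 and 93.7 CPM in Il1rnKO 1, 2 and 3. Its paralog Ezh1, which predominates in resting cells, measured 113, 99.0 and 83.5 CPM in WT 1, 2 and 3 and 115, 122 and 99.4 CPM in Il1rnKO 1, 2 and 3. Ezh2 was nearly flat across the 6 libraries (log2 fold change -0.01 (SE 0.14)), and Ezh1 had the largest difference of the core (log2 fold change 0.19 (SE 0.16)) with overlapping groups. The histone-binding subunit Rbbp7 had the highest level of the core, 39.9 ± 1.18 CPM per kilobase (SD, n = 6), and measured 119, 118 and 114 CPM in WT 1, 2 and 3 and 114, 111 and 119.5 CPM in Il1rnKO 1, 2 and 3. Rbbp7 was also the steadiest of the 43 members, with a within-group standard deviation of 0.0447 in log2 CPM. Its paralog Rbbp4 measured 163, 167 and 194 CPM in WT 1, 2 and 3 and 156, 148 and 209.7 CPM in Il1rnKO 1, 2 and 3. Library 3 was the highest of each group for Rbbp4, and the groups overlapped (log2 fold changes -0.03 (SE 0.13) for Rbbp7 and -0.03 (SE 0.17) for Rbbp4).

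Accessory subunits that steer PRC2 to its sites spanned a wide range of levels. Phf1, a Polycomb-like protein, had the highest level of all members at 58.9 ± 6.07 CPM per kilobase and its paralog Phf19 one of the lowest at 1.73 ± 0.423 (SD, n = 6). Phf1 measured 208, 201 and 197 CPM in WT 1, 2 and 3 and 246, 189 and 192 CPM in Il1rnKO 1, 2 and 3. Phf19 measured 10.3, 5.25 and 7.50 CPM in WT 1, 2 and 3 and 10.9, 8.32 and 10.1 CPM in Il1rnKO 1, 2 and 3. Il1rnKO 1 was the highest library for both, and the groups of both overlapped, with log2 fold changes of 0.05 (SE 0.15) for Phf1 and 0.34 (SE 0.31) for Phf19. The third Polycomb-like gene, Mtf2, and the alternative cofactors Jarid2 and Aebp2 had overlapping groups too, with log2 fold changes of -0.06 (SE 0.17) for Mtf2, 0.06 (SE 0.20) for Jarid2 and -0.06 (SE 0.14) for Aebp2.

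Both ubiquitin ligases of PRC1 were expressed, Rnf2 above Ring1. Rnf2 measured 72.5, 90.4 and 89.6 CPM in WT 1, 2 and 3 and 67.0, 77.5 and 97.6 CPM in Il1rnKO 1, 2 and 3. Ring1 measured 32.3, 34.1 and 29.1 CPM in WT 1, 2 and 3 and 27.6, 30.8 and 31.9 CPM in Il1rnKO 1, 2 and 3. Neither separated the groups (log2 fold changes -0.06 (SE 0.18) and -0.08 (SE 0.16)).

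The PCGF proteins, of which 1 pairs with the ligase in each form of PRC1, held the largest differences after Sfmbt2. Pcgf2 (Mel18), found in canonical PRC1, measured 14.9, 14.2 and 11.7 CPM in WT 1, 2 and 3 and 19.1, 31.0 and 17.2 CPM in Il1rnKO 1, 2 and 3. Pcgf3, which belongs to a variant form and is named because of the values found here, measured 22.1, 19.8 and 24.3 CPM in WT 1, 2 and 3 and 31.9, 39.3 and 28.4 CPM in Il1rnKO 1, 2 and 3. All knockout libraries were above all wild-type libraries for both genes, with Il1rnKO 2 the highest. Log2 fold changes were 0.72 (SE 0.25) for Pcgf2 and 0.59 (SE 0.18) for Pcgf3. Without Il1rnKO 2 the Pcgf2 log2 fold change was 0.39 and the Pcgf3 log2 fold change 0.43. Bmi1, the paralog of Pcgf2 and the highest of the class at 22.5 ± 5.16 CPM per kilobase (SD, n = 6), measured 81.5, 95.2 and 120.2 CPM in WT 1, 2 and 3 and 65.5, 71.5 and 102 CPM in Il1rnKO 1, 2 and 3. Library 3 was the highest of each group and the groups overlapped (log2 fold change -0.31 (SE 0.21)). In the other 3 members of the class the log2 fold change was 0.14 (SE 0.34) for Pcgf1, -0.10 (SE 0.14) for Pcgf5 and -0.10 (SE 0.18) for Pcgf6.

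Among the CBX readers, which bind the H3K27 methyl mark, Cbx7 dominated at 30.9 ± 2.88 CPM per kilobase and Cbx2 was the lowest of all members at 1.17 ± 0.276 (SD, n = 6, over both groups). Cbx7 measured 211, 190.2 and 174 CPM in WT 1, 2 and 3 and 212, 226 and 191 CPM in Il1rnKO 1, 2 and 3. Cbx2 measured 4.50, 6.74 and 4.87 CPM in WT 1, 2 and 3 and 5.30, 5.37 and 3.16 CPM in Il1rnKO 1, 2 and 3. Both had overlapping groups (log2 fold changes 0.13 (SE 0.15) and -0.22 (SE 0.38)), as had Cbx6 (0.17 (SE 0.20)) and Cbx8 (0.13 (SE 0.20)).

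PHC and SCM proteins carry SAM domains through which canonical PRC1 polymerizes. Phc3 measured 187, 197 and 161 CPM in WT 1, 2 and 3 and 229, 274 and 156 CPM in Il1rnKO 1, 2 and 3. Il1rnKO 1 and Il1rnKO 2 were above every wild-type library, but Il1rnKO 3 was the lowest of the 6 (log2 fold change 0.28 (SE 0.20)). Scml4, an SCM-like gene, had the highest level of the class and measured 90.7, 99.5 and 77.2 CPM in WT 1, 2 and 3 and 103, 97.1 and 80.1 CPM in Il1rnKO 1, 2 and 3. Its groups overlapped (log2 fold change 0.07 (SE 0.16)), as did those of Phc1, Phc2 and Scmh1, whose log2 fold changes were -0.20 (SE 0.21), -0.08 (SE 0.16) and -0.14 (SE 0.21).

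Subunits of variant PRC1 also had overlapping groups. Rybp, which takes the place of CBX and stimulates the ligase, measured 58.6, 57.5 and 44.7 CPM in WT 1, 2 and 3 and 55.8, 37.0 and 42.7 CPM in Il1rnKO 1, 2 and 3. Its paralog Yaf2, the highest of the class per kilobase, measured 40.0, 32.3 and 45.0 CPM in WT 1, 2 and 3 and 30.5, 26.5 and 42.8 CPM in Il1rnKO 1, 2 and 3. Log2 fold changes were -0.25 (SE 0.19) and -0.23 (SE 0.21). Kdm2b, which binds unmethylated CpG DNA, had 0.15 (SE 0.18), its partner Bcor -0.01 (SE 0.17), and L3mbtl2, an MBT protein of the Pcgf6 complex, 0.07 (SE 0.19). The other MBT genes were L3mbtl3, which measured 65.4, 61.7 and 53.7 CPM in WT 1, 2 and 3 and 75.6, 59.2 and 51.9 CPM in Il1rnKO 1, 2 and 3 (log2 fold change 0.05 (SE 0.17)), and Mbtd1 (log2 fold change 0.02 (SE 0.16)). Neither had groups that separated.

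Enzymes that remove the Polycomb marks were well expressed. Bap1, the deubiquitinase of PR-DUB, measured 82.0, 96.1 and 84.6 CPM in WT 1, 2 and 3 and 78.7, 88.7 and 78.8 CPM in Il1rnKO 1, 2 and 3. Asxl1, which activates Bap1, measured 183, 187 and 136 CPM in WT 1, 2 and 3 and 223, 216 and 173 CPM in Il1rnKO 1, 2 and 3. Both had overlapping groups (log2 fold changes -0.09 (SE 0.14) and 0.27 (SE 0.17)), as had Asxl2 (0.08 (SE 0.16)). The H3K27 demethylase Kdm6b measured 239, 304 and 194 CPM in WT 1, 2 and 3 and 280.0, 269 and 181 CPM in Il1rnKO 1, 2 and 3. X-linked Kdm6a, its paralog, measured 175, 198 and 165 CPM in WT 1, 2 and 3 and 162, 166 and 143 CPM in Il1rnKO 1, 2 and 3. In each group of both genes library 3 was the lowest, and the groups overlapped (log2 fold changes -0.01 (SE 0.21) and -0.19 (SE 0.14)).

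**Figure D2:**
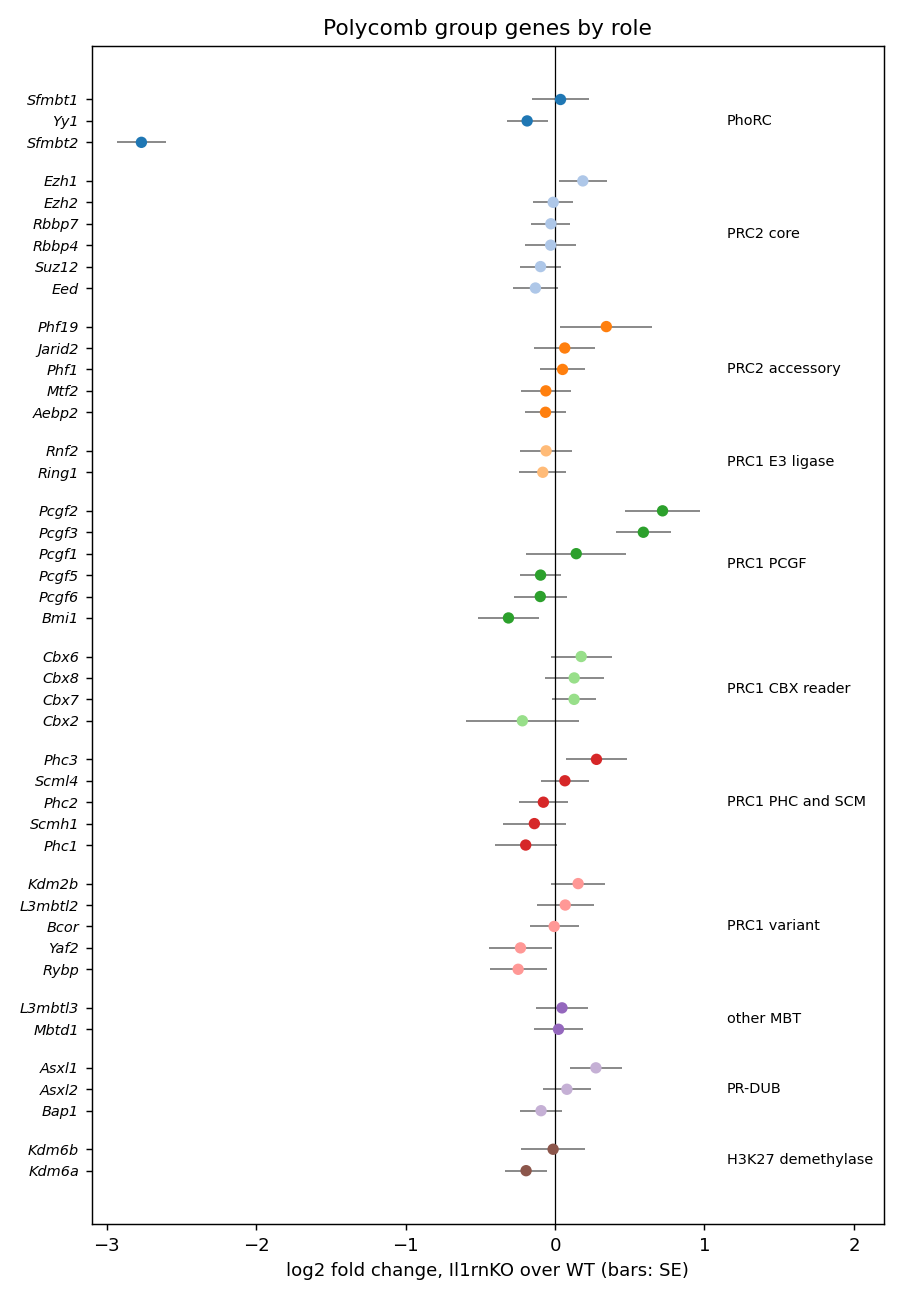
Log2 fold change of knockout over wild type for the 43 members, grouped by role, with bars of 1 standard error from the fit over all genes. Sfmbt2 stands at -2.77, and the other 42 lie between -0.31 (Bmi1) and 0.72 (Pcgf2).

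Across the list, 1 of 43 members passed the threshold (adjusted p under 0.05 in edgeR's quasi-likelihood test over 13374 genes), and it was lower in knockout. The background was 7 genes, 0.0523% (0.0299% higher and 0.0224% lower), and 3 to 10 genes with 1 library left out. Since Sfmbt2 chose the list, nothing is read from that count. None of the other 42 passed by edgeR, DESeq2 or limma voom. An unadjusted edgeR p under 0.05 was found for 2 of them (Pcgf2 and Pcgf3), a share near the 4.08% of all genes. With Sfmbt2 left out, groups did not overlap for 3 of the 42, 2 higher and 1 lower, against 9.42% of all genes (5.77% higher and 3.65% lower). Of the 42, 19 had positive and 23 negative log2 fold changes, with a median of -0.01 against 0.02 for all tested genes. In 33 of the 42 (78.6%) the log2 fold change was within 0.2 of 0, as it was in 53.1% of all tested genes. These shares were not matched for level, and genes of few counts have wider errors. They therefore do not show that the members were steadier between genotypes than other genes. The CPM of all members together came to 3967 ± 159 in the wild-type libraries and 3935 ± 221 in the knockout libraries (SD, n = 3).

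Ratios of paralogs within a library were not used to choose the list, and were compared over all 6 libraries together. In 17 pairs the mean log2 ratio of CPM per kilobase was tested by an exact two-sided sign-flip permutation test with Benjamini-Hochberg adjustment over the pairs. The smallest p that 6 libraries allow is 0.03125, and 13 pairs reached it (adjusted p = 0.0409), each with the same direction in 6 of 6 libraries. Among PRC2 cofactors, Phf1 was 4.24-fold above Mtf2 and Phf19 was 8.23-fold below it. In PRC1, Rnf2 was 2.08-fold above Ring1, Bmi1 4.54-fold above Pcgf2, Pcgf5 1.67-fold above Pcgf3, Cbx7 8.98-fold above Cbx6 and Cbx8 3.92-fold above Cbx2. By group, the mean log2 ratio of Bmi1 over Pcgf2 was 2.68 ± 0.46 in wild type and 1.68 ± 0.69 in knockout, and that of Pcgf3 over Pcgf5 was -1.08 ± 0.08 and -0.40 ± 0.22 (SD of 3 libraries), differences that were not tested. Further down the list, Phc2 was 2.81-fold above Phc1, Scml4 4.98-fold above Scmh1, Yaf2 1.85-fold above Rybp and Rbbp7 2.03-fold above Rbbp4.

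Levels per kilobase depend on which length is used. Asxl1 was 2.17-fold above Asxl2 and Kdm6b 1.73-fold above Kdm6a with the exon union, and both directions reversed with the mean length of coding transcripts (log2 ratios of -0.04 for Asxl1 over Asxl2 and 0.46 for Kdm6a over Kdm6b). The other 11 called pairs had the same sign with all 3 lengths, but not the same size. With the mean coding transcript the log2 ratio of Rbbp4 over Rbbp7 went from -1.02 to -0.21 and lost its call, that of Phf1 over Mtf2 went from 2.08 to 0.82, and that of Pcgf3 over Pcgf5 from -0.74 to -2.57. With the exon union, Ezh1 over Ezh2 had a mean log2 ratio of 0.04 ± 0.26 (SD, n = 6; exact permutation p = 0.75, adjusted p = 0.797). The mean became -0.40 with the longest transcript and -0.81 with the mean coding transcript. A change of length moves all libraries alike, and either of these lengths put Ezh2 above Ezh1 in every library. The p-values just given hold for the exon union only. With the exon union, the ratio also missed the threshold for Phc3 over Phc2 (-0.04 ± 0.37; exact p = 0.906, adjusted p = 0.906) or Pcgf1 over Pcgf6 (0.27 ± 0.52; exact p = 0.3125, adjusted p = 0.354). L3mbtl2 over L3mbtl3 missed it with the exon union (-0.07 ± 0.15; exact p = 0.281, adjusted p = 0.342) and passed with the longest transcript, where the log2 ratio was -0.80.

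**Figure D3:**
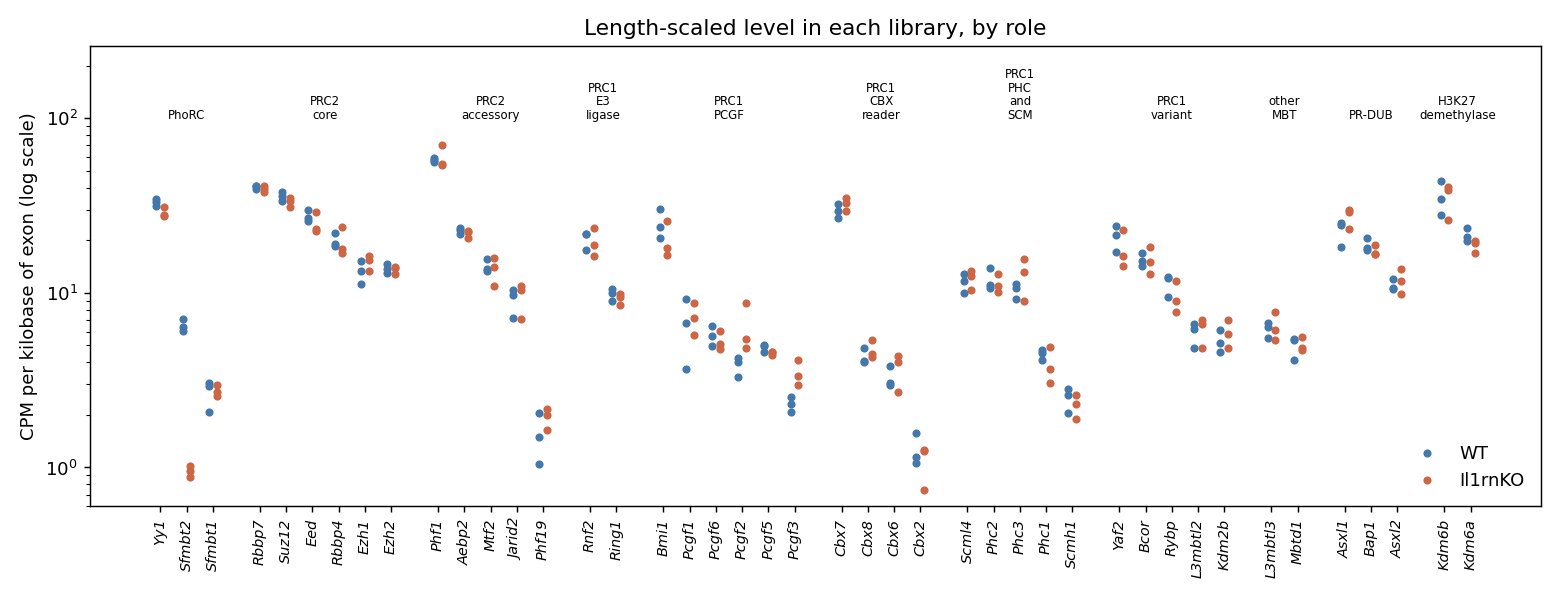
CPM per kilobase of exon for the 43 members on a log axis, grouped by role, with 1 point per library coloured by group. Phf1 is the highest with a mean of 58.9, and Sfmbt2 drops from a mean of 6.51 in wild type to 0.956 in knockout.

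Apart from genotype, many members moved together between libraries. Of the 43, 17 (39.5%) were lowest in library 3 of both groups, against 20.5% of all tested genes, a pattern noticed in these data. They were Kdm6a, Kdm6b, Asxl1, Asxl2, Cbx6, Cbx7, Phc1, Phc3, Scmh1, Scml4, Jarid2, Ezh1, Sfmbt1, Pcgf2, Kdm2b, L3mbtl2 and L3mbtl3. Another 6 (14.0%, against 21.3% of all tested genes) were highest there, namely Bmi1, Pcgf1, Yaf2, Mtf2, Ezh2 and Rbbp4. The pattern was not confined to the members. Of the Trithorax group genes described below, Kmt2a, Kmt2b, Kmt2c and Kmt2d, for example, were lowest in library 3 of both groups. Dpy30 of the same group was highest there. The libraries numbered 3 also had the highest mitochondrial share of their groups, 8.92% and 8.34%, and its part in the pattern was not tested. Within-group standard deviations of log2 CPM ran from 0.045 (Rbbp7) to 0.52 (Pcgf1) with a median of 0.21, and 24 of 43 were below the median of tested genes of like level. With both libraries numbered 3 left out, an alternative chosen after seeing the data, the Sfmbt2 log2 fold change was -2.84 and 0 of the other 42 members passed.

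**Figure D4:**
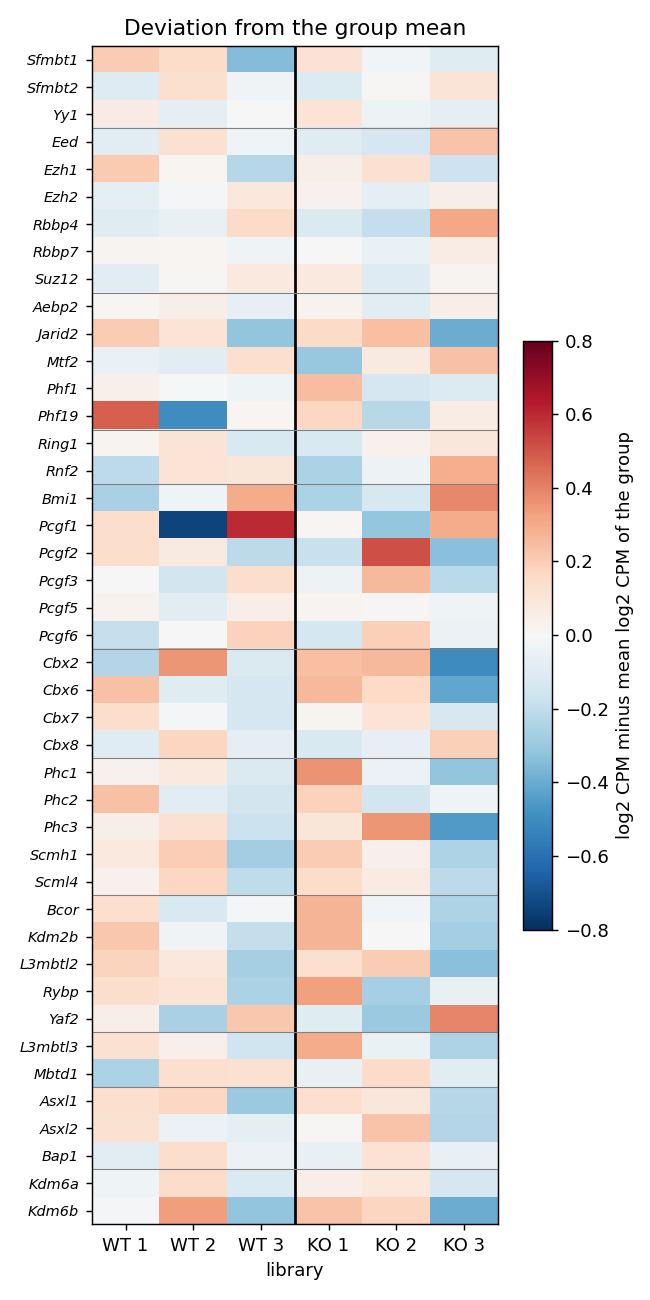
Deviation of log2 CPM from the group mean for each member (rows, by role) in each of the 6 libraries (columns, KO for Il1rnKO), in log2 units. Library 3 is the lowest of both groups for 17 of 43 members and the highest of both for 6.

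Other Polycomb partners were counted from a list chosen by function. None of 31 tested genes passed the threshold by edgeR, DESeq2 or limma voom, against 0.0523% of all genes by edgeR. An unadjusted edgeR p under 0.05 was found for 2 of the 31, against 4.08% of all genes, and groups that did not overlap for 3 of the 31, against 9.42%. Ogt, the O-GlcNAc transferase that binds PR-DUB, measured 452, 391 and 378 CPM in WT 1, 2 and 3 and 642, 874 and 483 CPM in Il1rnKO 1, 2 and 3. Auts2, a subunit of the Pcgf3 and Pcgf5 forms of PRC1, measured 2.08, 1.85 and 2.47 CPM in WT 1, 2 and 3 and 4.20, 7.04 and 3.53 CPM in Il1rnKO 1, 2 and 3. For both genes every knockout library was above every wild-type library and Il1rnKO 2 was the highest. The log2 fold changes were 0.71 (SE 0.22) for Ogt and 1.20 (SE 0.45) for Auts2 (edgeR adjusted p = 0.988 for each). Without Il1rnKO 2 the Ogt log2 fold change was 0.44 and the Auts2 log2 fold change 0.83. The list had 18 positive and 13 negative values with a median of 0.08, against 0.02 for all genes.

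Of 24 tested Trithorax group genes, which counteract Polycomb silencing, 0 passed the threshold by any of the 3 tools. The share of all genes was 0.0523% by edgeR. Of the 24, 0 had an unadjusted edgeR p under 0.05, against 4.08% of all genes. Log2 fold changes of the 24 were positive in 17 and negative in 7, against 7031 and 6343 of all tested genes. The median of the 24 was 0.09, against 0.02 for all tested genes. Within this list the smallest p belonged to Rbbp5, a subunit of H3K4 methyltransferases (log2 fold change 0.37 (SE 0.19)), and Smarcc2, a subunit of BAF remodelling complexes (0.30 (SE 0.15)). Without Il1rnKO 2 the Rbbp5 log2 fold change was 0.20 and the Smarcc2 log2 fold change also 0.20. Among genes known to be restrained by Ezh2 in T cells and other cells, 0 of 10 tested passed the threshold by the same tools. Of the 10, 0 had an unadjusted edgeR p under 0.05, and the shares of all genes were those just given. This list had 5 positive and 5 negative values and a median of -0.02. The cell cycle inhibitor Cdkn2b measured 1.65, 0.433 and 0.773 CPM in WT 1, 2 and 3 and 2.37, 1.47 and 2.72 CPM in Il1rnKO 1, 2 and 3, a low level in every library with overlapping groups (log2 fold change 1.19 (SE 0.71)). Zbtb16, the PLZF transcription factor of innate-like T cells, measured 20.7, 19.9 and 25.9 CPM in WT 1, 2 and 3 and 28.2, 36.8 and 20.9 CPM in Il1rnKO 1, 2 and 3. Its groups overlapped (log2 fold change 0.37 (SE 0.22)), and without Il1rnKO 2 the Zbtb16 log2 fold change was 0.12.

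Hox genes, classic Polycomb targets, were mostly silent or low in both genotypes. Of 39 in the table, 20 had 0 counts in every library and 3 were tested. Of the 3, 0 passed the threshold by the 3 tools, against 0.0523% of all genes by edgeR. An unadjusted edgeR p under 0.05 was found for 0 of the 3, against 4.08% of all genes. Hoxb4 measured 5.49, 5.50 and 2.32 CPM in WT 1, 2 and 3 and 2.21, 3.77 and 2.72 CPM in Il1rnKO 1, 2 and 3. Hoxc4, the highest of the 3, measured 5.38, 8.53 and 4.25 CPM in WT 1, 2 and 3 and 4.86, 9.27 and 5.57 CPM in Il1rnKO 1, 2 and 3. Hoxb1 was at most 1.41 CPM in any library. All 3 had overlapping groups (log2 fold changes -0.62 (SE 0.48) for Hoxb4, 0.11 (SE 0.38) for Hoxc4 and 1.12 (SE 0.81) for Hoxb1). Of 4 genes that, like Sfmbt2, are imprinted in the mouse through histone marks, Gab1 and Smoc1 had 0 counts in every library and Slc38a4 was below the filter. Jade1, the 1 tested, had overlapping groups (log2 fold change -0.12 (SE 0.15)), and did not pass by any of the 3 tools.

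Around Sfmbt2 on chromosome 2, no tested gene within 1 Mb shared its difference. Inside the gene 120 genes are annotated, 119 of them microRNA genes and 1 antisense gene (Gm13261), and 0 of these are among the identifiers of the table. Of 8 tested genes within 1 Mb, 0 passed the threshold by edgeR, DESeq2 or limma voom, against 0.0523% of all genes by edgeR. An unadjusted edgeR p under 0.05 was found for 0 of the 8, against 4.08% of all genes. Log2 fold changes of the 8 were -0.15 to 0.25. The nearest on one side were Itih5, a hyaluronan-binding protein gene (0.13 (SE 0.45)), and Kin, a DNA-binding protein gene (0.23 (SE 0.19)). On the other side were Prkcq, the protein kinase of T cell receptor signalling (-0.01 (SE 0.14)), and Pfkfb3, a regulator of glycolysis (-0.05 (SE 0.17)). Their signs were not stable, since the Itih5 log2 fold change was -0.36 without Il1rnKO 2, the Prkcq log2 fold change 0.013 without Il1rnKO 3 and the Pfkfb3 log2 fold change 0.017 without WT 1, while Kin was positive with each library left out. Gata3, which encodes the regulator of type 2 helper cells, lies within the window at 0.25 (SE 0.19).

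Il1rn, the gene disrupted in the knockout, lies on the same chromosome, 13.7 Mb beyond the end of Sfmbt2. Between them 45 genes were tested, Bmi1 among them. None passed the threshold by the same 3 tools, and 4 of the 45 had an unadjusted edgeR p under 0.05 (2 higher and 2 lower in knockout), against 4.08% of all genes. Groups did not overlap for 2 of the 45, against 9.42% of all genes. Log2 fold changes ran from -2.16 (SE 0.91) for Cacnb2 to 1.58 (SE 0.75) for the pseudogene Gm13378, with a median of -0.04. Both of these were genes of few counts with wide errors and overlapping groups. Cacnb2 was at most 5.87 CPM and Gm13378 at most 2.71 CPM in any library.

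**Figure D5:**
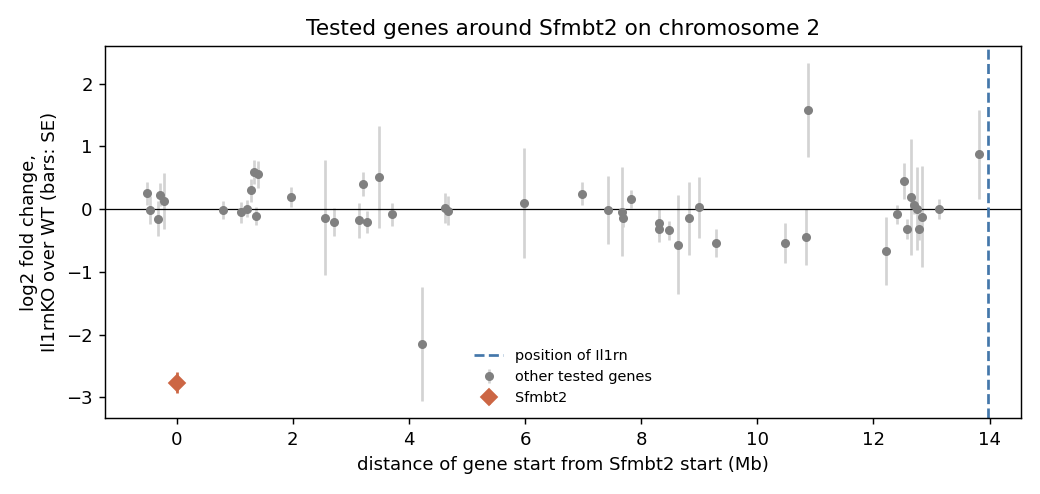
Log2 fold change of knockout over wild type for tested genes on chromosome 2 between the neighbours of Sfmbt2 and Il1rn, against distance from the start of Sfmbt2 in Mb, with bars of 1 standard error and a dashed line at Il1rn. Sfmbt2 lies at -2.77, and the 8 tested genes within 1 Mb lie between -0.15 and 0.25.

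Overlap with other annotated genes limits single values. Of the 43 members, 22 overlap an annotated gene on the opposite strand, Sfmbt2 among them. Overlap was taken over whole gene spans, introns included, so exons need not be shared. The use of strand in counting is not given in the sources used here, so reads from any shared exons cannot be told apart. Pcgf2, Pcgf3, Yy1 and Bmi1 have no such overlap, and overlap on the same strand was not counted.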

How the data were processed

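RNA was measured in 6 libraries of sorted splenic effector memory CD4+ T cells, 3 from Il1rn knockout and 3 from wild-type mice, grouped by the labels. Poly(A)-selected libraries were made with a directional kit, per the labels' protocols. The authors deposited estimated counts (expected counts, many with decimals) per gene, not scaled to a common total. Per the submitters' processing notes the build was GRCm38. Which aligner and counting program were run, and whether strand was used, is not given in the sources used here. An estimate may have divided reads among near-identical genes.

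The deposited expected counts were rounded to whole numbers. Symbols and coordinates came from GENCODE M21 of the same build, in which 34652 of 34866 identifiers matched with the version left off and 214 did not. Groups were compared in R 4.3.3 with edgeR 4.0.16, using TMM, filterByExpr (minimum count 10, minimum total 15) and its quasi-likelihood test (two-sided), adjusted by Benjamini-Hochberg over 13374 genes, with a threshold of 0.05. The common biological coefficient of variation was 0.286. CPM are TMM-scaled, log2 fold changes put knockout over wild type, and log2 CPM used a prior count of 2. Paralog levels were compared per kilobase of exon union by an exact sign-flip test over libraries. Promoters came from RefSeq (GRCm38.p6). On simulated data, edgeR recovered 44% of 2-fold and 78% of 4-fold changes, with 13 false calls. DESeq2 recovered 58% and 83%, with 45 false calls, and limma voom 45% and 78%, with 13. A gene that did not pass may therefore still differ.

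Members, gene lists and the rule for naming genes were chosen with earlier results of these data known. Library values are given for Sfmbt2, Sfmbt1, Yy1, the catalytic and core subunits, and in each class of role the member with the highest level per kilobase and the one with the largest difference. Outside the members, the 2 genes with the smallest p of each list and the 2 nearest neighbours on each side are named. Slc38a4, Gab1, Smoc1, Gata3, Hoxc4, Cacnb2, Gm13378, Kmt2a, Kmt2b, Kmt2c, Kmt2d, Dpy30 and Ngp are named beside that rule. The alternatives tried were upper-quartile and RLE normalization, no filter, a filter of 50 counts in 3 libraries, a replicate block, DESeq2 1.42.0, limma 3.58.1 voom with quality weights, each library left out, and other lengths. The p-values cover no more than the spread among the libraries.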

Additional observations from a re-analysis of the deposited data

How the results depend on the processing

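The log2 fold change of Sfmbt2, which chose the list and is described only, ran from -2.85 to -2.70 over 15 fits of the same libraries. None of the other 42 members passed the threshold in any. Of the 588 values of those 42 members in the 14 other settings, 547 kept the sign of the main value. Sizes moved as well, and the Pcgf2 and Pcgf3 differences shrank without Il1rnKO 2, as given above. No gene of the other lists or within 1 Mb of Sfmbt2 passed in any fit. The number of genes past the threshold over the whole table was 7, and became 58 with no filter, 25 with DESeq2, 11 with limma voom and 3 to 10 with each library left out (3 without WT 1 or WT 3, 4 without WT 2, Il1rnKO 1 or Il1rnKO 2, 10 without Il1rnKO 3). The replicate numbers do not pair the samples by the labels. Correlations of the deviations of same-numbered samples were 0.108, 0.053 and 0.116, and every sample correlated best with its own number, a hint from the data only. With the replicate block 11 genes passed and the Itih5 log2 fold change turned to -0.035. It ran from -0.36 to 0.53 with a library left out, the Prkcq log2 fold change from -0.060 to 0.013, and the Pfkfb3 log2 fold change from -0.20 to 0.017, with 0.073 for Pfkfb3 by limma voom and 0.056 with both libraries numbered 3 left out. The paralog pair log2 ratio Ezh1/Ezh2 was -0.40 with the longest transcript and -0.81 with the mean coding transcript, negative in every library with either. With the exon union it ran from -0.022 to 0.12 with a library left out. The paralog pair log2 ratio Phc3/Phc2 ran from -0.17 to 0.033. Asxl1 over Asxl2 turned to -0.039 and Kdm6a over Kdm6b to 0.46 with the mean coding transcript, where Rbbp4 over Rbbp7 also lost its call (-0.21), and L3mbtl2 over L3mbtl3 gained one with the longest transcript (-0.80). The lengths themselves set these changes, and for the other changes the cause was not tested. With 5 libraries the sign-flip test cannot pass. Members of few counts, such as Cbx2, Phf19 and Pcgf1, have the widest errors.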
